A study of Mus musculus with 20 samples.

Results

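The 8 genes described here make sterols and fatty acids or control how much of them a cell makes. Hmgcs1, Idi1, Fdft1 and Sqle encode enzymes of cholesterol synthesis, Srebf1 and Insig1 encode regulators, and Scd1 and Fasn encode enzymes of fatty acid synthesis. They were taken by name: every array probe (a short fixed DNA strand that binds the labelled copy of a transcript) whose gene name was one of these, or an older synonym of it, was included. That gave 14 probes out of 41174, and 8 genes out of 27670 names. Where a gene had more than 1 probe, the probe brightest in heart on average stood for it. All 8 genes belonged to the 14567 that were tested, which required signal well above the local background in at least 3 hearts.

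RNA from 20 mouse hearts was measured, 1 heart per array, each against a common reference of pooled whole newborn mice. MuRF1 -/- mice lack MuRF1, a ubiquitin ligase of striated muscle encoded by Trim63, and MuRF1 +/+ mice have it. Fenofibrate, a lipid-lowering drug and ligand of the receptor PPAR alpha, was mixed into chow at 0.05% by weight. The groups were MuRF1 -/- hearts on chow (n = 3), after 3 weeks of fenofibrate (n = 4) and after 8 weeks (n = 3), and MuRF1 +/+ hearts on chow (n = 3), after 3 weeks (n = 4) and after 8 weeks (n = 3). The series text calls the mice strain-matched without naming the strain of the hearts; C57BL/6 is named for the newborn pool. That text puts the mice at 3 to 8 weeks old; the sample labels use the weeks for the length of feeding, and the labels were followed. Chow hearts are labelled 8 weeks, so the 3-week hearts had no control of matched duration, and within a genotype both fenofibrate responses share the same chow hearts. The labels name neither sex nor litter, and do not say in which tissues the gene was deleted. Whole hearts hold several cell types, so fewer cells of a type and less RNA per cell cannot be told apart.

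Cholesterol is built from acetyl units through the mevalonate pathway. Hmgcs1 makes the precursor of mevalonate, Idi1 interconverts the isoprene building blocks, Fdft1 joins them into squalene, and Sqle oxidises squalene toward lanosterol. Transcription of these enzymes is driven by the sterol regulatory element-binding proteins (SREBPs), which stay in the endoplasmic reticulum, held there through Insig1, while sterols are plentiful. Srebf1 encodes SREBP-1, best known for driving fatty acid synthesis in liver, where Fasn builds palmitate and Scd1 puts a double bond into saturated fatty acids. The adult heart burns fatty acids as its main fuel and makes few of them itself.

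Promoters are shown for the regulators, Srebf1, which changed with diet, and Insig1, whose probe was too dim to size a change, and for Hmgcs1, chosen after the search because it held the full sterol element. The RefSeq table for GRCm38.p6 held entries for 5 of the 8 genes, 7 entries in all, 3 of them for Srebf1; each covers 300 bases, 250 before and 50 after a transcript start. Searched on both strands were the sterol regulatory element TCACCCCAC and its core CACCCCAC, which lies inside it, the E-box CACGTG, the NF-Y box CCAAT and the Sp1 box GGGCGG. The Srebf1 starts lie on the minus strand at chr11:60222532-60222831, chr11:60220578-60220877 and chr11:60210422-60210721, Insig1 on the plus strand at chr5:28071162-28071461, and Hmgcs1 on the plus strand at chr13:119690101-119690400. Sequences run 5′ to 3′ along the gene, and capitals mark motifs, with ATTGG and CCGCCC being CCAAT and GGGCGG on the opposite strand.
Srebf1 start 1: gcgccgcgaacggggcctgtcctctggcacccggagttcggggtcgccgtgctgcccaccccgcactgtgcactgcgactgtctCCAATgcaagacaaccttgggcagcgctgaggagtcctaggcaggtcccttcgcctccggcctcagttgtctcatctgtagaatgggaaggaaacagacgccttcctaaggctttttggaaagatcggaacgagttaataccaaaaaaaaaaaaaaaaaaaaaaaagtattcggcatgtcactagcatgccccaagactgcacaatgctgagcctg
Srebf1 start 2: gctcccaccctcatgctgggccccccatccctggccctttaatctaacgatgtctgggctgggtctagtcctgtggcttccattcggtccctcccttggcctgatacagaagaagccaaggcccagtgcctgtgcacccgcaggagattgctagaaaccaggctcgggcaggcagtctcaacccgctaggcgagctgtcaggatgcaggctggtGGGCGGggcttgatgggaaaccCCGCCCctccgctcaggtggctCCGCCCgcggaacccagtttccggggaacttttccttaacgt
Srebf1 start 3: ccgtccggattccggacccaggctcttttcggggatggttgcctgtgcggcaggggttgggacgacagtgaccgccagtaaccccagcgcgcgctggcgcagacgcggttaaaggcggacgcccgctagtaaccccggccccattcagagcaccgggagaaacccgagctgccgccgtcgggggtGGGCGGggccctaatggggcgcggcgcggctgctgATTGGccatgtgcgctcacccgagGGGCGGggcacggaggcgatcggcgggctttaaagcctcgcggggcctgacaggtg
Insig1: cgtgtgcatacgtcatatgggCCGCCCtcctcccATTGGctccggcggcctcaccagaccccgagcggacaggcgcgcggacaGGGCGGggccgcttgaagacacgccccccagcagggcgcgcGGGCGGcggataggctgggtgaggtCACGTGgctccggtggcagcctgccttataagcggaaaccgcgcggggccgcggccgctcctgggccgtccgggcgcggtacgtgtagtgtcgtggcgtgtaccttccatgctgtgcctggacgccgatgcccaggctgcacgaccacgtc
Hmgcs1: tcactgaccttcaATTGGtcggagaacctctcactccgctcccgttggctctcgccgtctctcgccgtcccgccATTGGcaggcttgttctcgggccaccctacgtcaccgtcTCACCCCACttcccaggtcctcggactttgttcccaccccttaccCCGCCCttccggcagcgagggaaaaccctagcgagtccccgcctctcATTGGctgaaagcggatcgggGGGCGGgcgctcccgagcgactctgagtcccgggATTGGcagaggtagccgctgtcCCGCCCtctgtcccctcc
Hmgcs1 held 1 sterol element, 4 NF-Y boxes and 3 Sp1 boxes. Insig1 held 1 E-box, 1 NF-Y box and 3 Sp1 boxes. Of the Srebf1 entries, the first held 1 NF-Y box, the second 3 Sp1 boxes, and the third 1 NF-Y and 2 Sp1 boxes. Among 32851 mouse promoters of this length the full sterol element occurred in 0.551%, its core in 2.87%, the E-box in 7.15%, the NF-Y box in 37.4% and the Sp1 box in 35.7%. A match describes letters only.

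Levels below are log2 ratios of heart over the newborn reference, so a negative level means less signal in heart than in the newborn pool, and levels of different probes are not comparable. Srebf1, Fdft1, Hmgcs1, Idi1, Scd1 and Fasn were well above background in 20 of 20 hearts. Sqle was in 10 of 20 and Insig1 in 5 of 20. The further probes of these genes were dim: the other Fasn probe passed in 7 of 20 hearts, those of Hmgcs1 in 1 and 0, and those of Idi1, Insig1 and Fdft1 in 0, so no gene had a bright second probe to compare. The background correction used here adds a constant that pulls the ratios of dim probes toward 0. It can understate differences of Sqle and Insig1, and to a lesser degree those of Scd1, Idi1 and Fdft1. The sign of a difference on dim signal can depend on it too. Sqle at 8 against 3 weeks in MuRF1 -/- differed by 0.069 on these ratios and by -0.87 with Agilent's own ratio.

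Several features of the whole series bear on every result below. Trim63 lay between -1.19 and -0.49 in the 10 MuRF1 -/- hearts and between 0.79 and 2.85 in the 10 MuRF1 +/+ hearts, as the labels say. Of 10 cardiomyocyte markers, 9 or 10 were well above background in every heart, with a mean level of 2.45 to 3.26. Only Ttn and Actn2 among them passed with diet. At 3 weeks Ttn rose by 1.57 in MuRF1 -/- and 1.98 in MuRF1 +/+ (log2), and Actn2 fell by 0.51 in MuRF1 -/-. Ttn was also higher by 1.31 at 8 weeks against chow in MuRF1 +/+. At 8 against 3 weeks in MuRF1 -/- Ttn fell by 1.64 and Actn2 rose by 0.70. Replicate 4 of the MuRF1 -/- 3-week hearts and replicate 2 of the MuRF1 +/+ 8-week hearts stood apart, with mean correlations to their own groups of 0.907 and 0.825. The means of the other hearts in those 2 groups include their correlation with the array that stood apart. They were 0.947 to 0.957 in MuRF1 -/- 3-week hearts and 0.873 and 0.903 in MuRF1 +/+ 8-week hearts. In the 4 other groups the means were 0.976 to 0.988. Arrays were assigned to 5 slides by their shared scan and grid name in the headers, while the barcode field named another slide on 4 arrays and none on 4. Of 10 textbook targets of PPAR alpha, 0 rose and 1, Hadha, fell at 3 weeks in MuRF1 -/- hearts, with 2 at an unadjusted p under 0.05 (37.7% of all genes), and 0 passed limma in MuRF1 +/+ hearts, with 0 unadjusted (36.4% of all genes). At 8 weeks against chow 2 rose in MuRF1 -/- (Pdk4 by 2.40 and Acot1 by 1.75, log2) and 4 rose in MuRF1 +/+ (Pdk4 by 2.83, Angptl4 by 1.64, Cpt1a by 0.38, and Acot1), and at 8 against 3 weeks 5 rose in each genotype. Sex-linked transcripts moved with diet. The mean of the Y-linked Ddx3y and Eif2s3y was -1.39 to -0.24 after 3 weeks in MuRF1 -/- hearts, against 1.18 to 1.54 on chow; in MuRF1 +/+ hearts it was -0.95 to -0.73 after 3 weeks, against 1.38 to 1.61 on chow. After 8 weeks it was -0.81 to 1.45 in MuRF1 -/- hearts and -0.92 to -0.52 in MuRF1 +/+ hearts. Xist, transcribed from the inactive X, was -4.13 to -3.49 on chow, -0.20 to 0.20 after 3 weeks and -4.05 to -2.72 after 8 weeks in MuRF1 -/- hearts. Its level in MuRF1 +/+ hearts was -4.24 to -3.87 on chow, -0.50 to 0.00 after 3 weeks and -2.70 to -0.90 after 8 weeks, between the other diets. The part of sex cannot be told apart from diet in the 3-week comparisons of either genotype, in the 8-week comparison of MuRF1 +/+ with chow, and at 8 against 3 weeks in MuRF1 -/-, where all 4 measured sex-linked genes passed (3 rose and 1, Xist, fell). In MuRF1 +/+ 1 of the 4, Xist, passed at 8 against 3 weeks.

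Srebf1 was lower after 3 weeks of fenofibrate than on chow in both genotypes, and in MuRF1 +/+ it was higher again after 8 weeks. In MuRF1 -/- hearts its level was -1.38, -1.37, -1.32 and -1.50 after 3 weeks, against -1.18, -0.51 and -0.87 on chow. In MuRF1 +/+ hearts it was -1.86, -1.31, -1.28 and -1.20 after 3 weeks, against -0.16, -0.86 and -0.34 on chow. In each genotype all 4 hearts at 3 weeks lay below all 3 chow hearts, with no overlap. Srebf1 fell 1.95-fold in MuRF1 +/+ (log2 difference -0.96 ± 0.18 SE, limma adjusted p = 0.00104) and 1.45-fold in MuRF1 -/- (-0.54 ± 0.18, limma adjusted p = 0.0365). The difference between these responses was 0.42 ± 0.26 and did not pass (adjusted p = 0.999), with a 95% interval of -0.12 to 0.97. The MuRF1 +/+ fall rests on no single heart: it ran from -1.16 to -0.81 as each heart was left out in turn. The MuRF1 -/- fall lost its call in 6 of 7 such fits, and without chow replicate 2 it was -0.37 (adjusted p = 0.208). With the Y-linked mean as a covariate the MuRF1 -/- difference was -0.95 (adjusted p = 0.104), and the MuRF1 +/+ difference was -1.38 (adjusted p = 0.0288). The Y-linked mean nearly followed diet at 3 weeks, so fits with this covariate cannot tell sex from diet.

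After 8 weeks Srebf1 stood at -1.14, -0.59 and -1.01 in MuRF1 -/- hearts and at -0.80, -0.95 and -0.80 in MuRF1 +/+ hearts. The MuRF1 +/+ values lay above all 4 of the 3-week hearts, a 1.48-fold rise (0.57 ± 0.18, limma adjusted p = 0.0391). The call was lost when replicate 1 or 2 of the 3-week hearts or replicate 1 or 3 of the 8-week hearts was left out, with differences of 0.42 to 0.60 and adjusted p up to 0.135. In MuRF1 -/- the groups did not overlap either, but the difference of 0.48 ± 0.18 did not pass (adjusted p = 0.0532). Set against chow, the 8-week difference was -0.058 ± 0.20 in MuRF1 -/- (adjusted p = 0.976) and -0.39 ± 0.20 in MuRF1 +/+ (adjusted p = 0.170), and values overlapped in both. Ordered by mean, the levels ran from -0.45 in MuRF1 +/+ chow hearts to -1.41 in MuRF1 +/+ 3-week hearts. The gap below the MuRF1 +/+ chow hearts and the gap above both 3-week groups exceeded the larger SD of the neighbours, and the other 3 gaps did not. The fall at 3 weeks held the same sign on every slide that carried both groups, with values of -1.71 and -0.45 on 2 slides for MuRF1 +/+, and -0.86 to -0.20 on 3 slides for MuRF1 -/-.

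**Figure D1:**
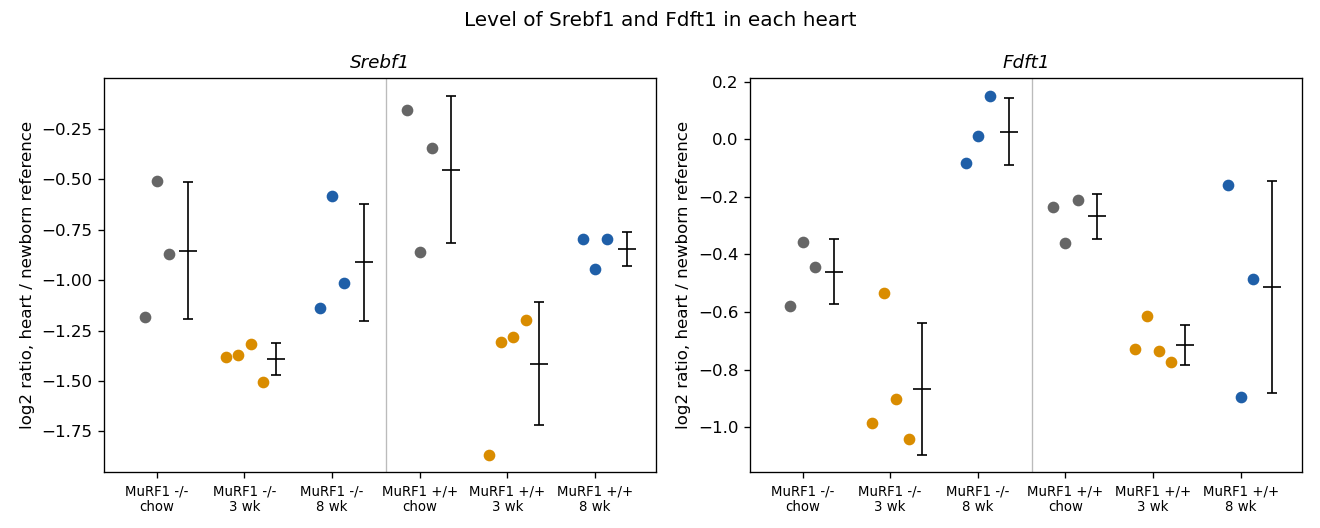
Level of Srebf1 and Fdft1 in each heart, as log2 ratio of heart over the newborn reference (vertical axis), by genotype and diet (horizontal axis). Points are hearts, and the bar beside them is the mean with its SD (n = 3 or 4). Srebf1 was lowest in both 3-week groups. Fdft1 was highest in the MuRF1 -/- 8-week hearts, where all 3 lay between -0.08 and 0.15.

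Fdft1 moved the same way as Srebf1 at 3 weeks, and in MuRF1 -/- hearts it was the highest of all groups at 8 weeks. Its product, squalene synthase, commits isoprene units to sterols. The level was -0.99, -0.54, -0.90 and -1.04 after 3 weeks in MuRF1 -/- hearts, against -0.58, -0.36 and -0.44 on chow. In MuRF1 +/+ hearts it was -0.73, -0.61, -0.74 and -0.77 after 3 weeks, against -0.23, -0.36 and -0.21 on chow. The MuRF1 +/+ groups did not overlap, whereas replicate 2 of the MuRF1 -/- 3-week hearts lay among the chow values. Fdft1 fell 1.33-fold in MuRF1 -/- (-0.41 ± 0.14, limma adjusted p = 0.0331) and 1.36-fold in MuRF1 +/+ (-0.44 ± 0.14, limma adjusted p = 0.0227). With the Y-linked covariate the differences were -0.50 in MuRF1 -/- (adjusted p = 0.280) and -0.54 in MuRF1 +/+ (adjusted p = 0.233). Both calls were lost. They were also lost in 5 and 3 of the 7 fits that left out 1 heart. Agilent's own ratio, which does not compress dim probes, gave -0.76 in MuRF1 -/- and -0.71 in MuRF1 +/+.

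After 8 weeks Fdft1 stood at -0.08, 0.01 and 0.15 in MuRF1 -/- hearts and at -0.16, -0.89 and -0.49 in MuRF1 +/+ hearts. The 3 MuRF1 -/- hearts lay above every other heart of the study. Compared with 3 weeks, Fdft1 rose 1.86-fold in MuRF1 -/- (0.89 ± 0.14, limma adjusted p = 0.000101). This was past the threshold in all 13 other settings and all 7 fits without 1 heart, with differences of 0.82 to 1.44 and adjusted p up to 0.00508. The highest difference was that of Agilent's ratio. In MuRF1 +/+ the same comparison gave 0.20 ± 0.14 (adjusted p = 0.337), with overlapping values. Set against chow, 8-week MuRF1 -/- hearts were higher by 0.49 ± 0.14 without overlap, which did not pass (adjusted p = 0.0922), but did without the 2 arrays that stood apart (adjusted p = 0.0101). With the Y-linked covariate the rise at 8 against 3 weeks was 0.96 (adjusted p = 0.00508). It had the same sign on both slides that carried both MuRF1 -/- groups, at 1.19 and 0.55.

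Between genotypes, Fdft1 at 8 weeks was higher by 0.54 ± 0.14 in MuRF1 -/- than in MuRF1 +/+ hearts, with no overlap, and did not pass (adjusted p = 0.0789). The 8-week response was higher by 0.73 ± 0.20 in MuRF1 -/- than in MuRF1 +/+, and this did not pass either (adjusted p = 0.197, 95% interval 0.30 to 1.16 before adjustment). Without replicate 1 of the MuRF1 +/+ 8-week hearts, at -0.16, the genotype difference was 0.72 (adjusted p = 0.00489) and the difference of responses 0.91 (adjusted p = 0.0149). Both also passed with all hearts kept and each array weighted by its fit, at 0.50 (adjusted p = 0.00347) and 0.67 (adjusted p = 0.00826). Without replicate 2, which read -0.89 and stood apart, the genotype difference was 0.35 (adjusted p = 0.394). The Y-linked mean was 1.45, -0.81 and 1.34 in the MuRF1 -/- hearts, against -0.92, -0.77 and -0.52 in the MuRF1 +/+ hearts, and holding it constant gave 0.60 (adjusted p = 0.258).

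Markers of other cell types moved along with diet beside these results, and their part in them was not tested. All 7 fibroblast markers and all 8 endothelial markers were well above background in every heart. The mean fibroblast level after 3 weeks was -2.98 to -2.38 in MuRF1 -/- hearts, against -3.58 to -2.98 on chow, and -2.94 to -2.54 in MuRF1 +/+ hearts, against -3.50 to -3.35 on chow. After 8 weeks it was -4.13 to -3.58 in MuRF1 -/- hearts and -3.45 to -2.19 in MuRF1 +/+ hearts. Endothelial markers averaged 0.66 to 1.04 after 3 weeks in MuRF1 -/- hearts, against 0.33 to 0.54 on chow, and 0.76 to 0.95 in MuRF1 +/+ hearts, against 0.39 to 0.47 on chow. After 8 weeks they averaged 0.43 to 0.56 in MuRF1 -/- hearts. There 3 of 8 fell against 3 weeks, as did 4 of 7 fibroblast markers, beside the rise of Fdft1. In that comparison 18% of all genes fell. In MuRF1 +/+ hearts the endothelial markers averaged 0.71 to 1.97 after 8 weeks, where 4 of 8 rose against chow (5.85% of all genes rose). Of 7 macrophage markers 3 fell at 3 weeks in MuRF1 -/- (mean -0.13 to 0.02, against -0.04 to 0.38 on chow) and 2 fell in MuRF1 +/+ (-0.10 to 0.07, against 0.10 to 0.26 on chow). The mean of 4 atrial markers at 3 weeks was -1.68 to -0.16 in MuRF1 -/- hearts, against -1.86 to -1.60 on chow, and -1.15 to -0.96 in MuRF1 +/+ hearts, against -1.91 to -1.65 on chow. Of these 4 Nppa rose by 1.02 in MuRF1 -/- and Myl7 by 1.79 in MuRF1 +/+. Acta2, 1 of 4 smooth muscle markers, fell by 0.61 in MuRF1 -/- and by 0.71 in MuRF1 +/+ at 3 weeks. At 3 weeks 14.4% of all genes rose and 12.1% fell in MuRF1 -/-, and 12.3% rose and 12.2% fell in MuRF1 +/+. Of the 10 adipocyte markers only Fabp4 and Pparg passed in any diet comparison. Fabp4 rose by 1.27 and Pparg by 0.57 at 8 weeks against chow in MuRF1 +/+, where 5.85% of all genes rose. At 8 against 3 weeks Pparg rose by 0.51 in MuRF1 +/+, where 8.11% of all genes rose. Fabp4 fell by 1.16 in MuRF1 -/- at 8 against 3 weeks, where 18% of all genes fell.

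None of the other sterol enzymes, Hmgcs1, Idi1 and Sqle, passed at 3 weeks against chow, and Hmgcs1 alone among them passed any test. Hmgcs1, the cytosolic synthase upstream of mevalonate, read -1.90, -1.97 and -2.00 after 8 weeks in MuRF1 -/- hearts, against -1.73, -1.67, -1.74 and -1.29 after 3 weeks. All 3 hearts at 8 weeks were lower than all 4 at 3 weeks, a 1.28-fold fall (-0.35 ± 0.12, limma adjusted p = 0.0349), opposite in sign to Fdft1. The call was lost in 8 of 13 other settings, and without 3-week replicate 4 the difference was -0.25 (adjusted p = 0.0916). Against chow, where MuRF1 -/- hearts read -1.55, -1.52 and -1.77, the 8-week difference of -0.34 ± 0.13 did not pass (adjusted p = 0.213), though values did not overlap. In MuRF1 +/+ hearts Hmgcs1 was -1.75 to -1.59 on chow, -1.59 to -1.42 after 3 weeks and -2.00 to -1.46 after 8 weeks, and no diet difference passed.

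Idi1 had the smallest span of group means of the 8 genes, 0.20, and passed no test. Its level was -1.48 to -1.29 on chow, -1.52 to -0.89 after 3 weeks and -1.30 to -1.14 after 8 weeks in MuRF1 -/- hearts. In MuRF1 +/+ hearts it was -1.37 to -1.32 on chow, -1.34 to -1.05 after 3 weeks and -1.38 to -1.07 after 8 weeks. Values overlapped with chow throughout, and the largest diet difference against chow was 0.18 ± 0.12 (95% interval -0.075 to 0.43). Sqle, the squalene epoxidase, was dim: in the MuRF1 -/- 8-week group 0 of 3 hearts were well above background. It read -2.34 to -1.30 after 3 weeks in MuRF1 -/- hearts, against -2.20 to -1.71 on chow, and -1.95 to -1.70 after 3 weeks in MuRF1 +/+ hearts, against -2.08 to -1.88 on chow. Its largest diet difference was 0.34 ± 0.20 after 8 weeks in MuRF1 +/+ (adjusted p = 0.254), where hearts read -1.87, -1.55 and -1.43.

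Insig1, which retains SREBPs in the endoplasmic reticulum, was near the detection limit. In MuRF1 +/+ hearts it read -0.07, -0.02 and -0.05 after 8 weeks, against -0.27, -0.25, -0.21 and -0.26 after 3 weeks. These groups did not overlap and the comparison passed (limma adjusted p = 0.0325), but 1 of 3 hearts at 8 weeks and 0 of 4 at 3 weeks were well above background. The size is therefore not known: the log2 difference was 0.20 ± 0.063 on the ratios used here and 1.66 with Agilent's ratio. The call was lost in 5 of 7 fits without 1 heart. Across the remaining groups Insig1 read -0.30 to 0.06. In MuRF1 -/- the 8-week hearts did not pass against the 3-week hearts (adjusted p = 0.0596).

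Scd1 and Fasn, the fatty acid enzymes, passed no test in any comparison. Scd1 was -1.55, -1.75, -1.54 and -1.48 after 3 weeks in MuRF1 +/+ hearts, against -1.80, -1.83 and -1.82 on chow. All 4 lay above the chow hearts, but the difference of 0.24 ± 0.15 did not pass (adjusted p = 0.262, 95% interval -0.072 to 0.54). After 8 weeks MuRF1 +/+ hearts read -1.88, -1.20 and -1.42 and overlapped with chow (0.32 ± 0.16, limma adjusted p = 0.167). Without 8-week replicate 1 this difference was 0.51 (limma adjusted p = 0.0147). That fit keeps replicate 2, which read -1.20 and stood apart from its group. In MuRF1 -/- hearts Scd1 was -2.05 to -1.61 on chow, -1.76 to -1.26 after 3 weeks and -1.80 to -1.67 after 8 weeks, with overlap throughout. The hearts with the highest Scd1, MuRF1 +/+ 8-week replicate 2 (-1.20) and MuRF1 -/- 3-week replicate 4 (-1.26), also had the highest mean of 10 adipocyte markers, at -1.12 and -1.27. The same arrays had the highest mean of the fibroblast markers (-2.19 and -2.38) and of 3 hepatocyte markers (-1.95 and -2.26), and the lowest shares of probes well above background (34.0% and 34.3%). Over all hearts 7 or 8 of the 10 adipocyte markers were well above background, with Lep and Adrb3 in 0 of 20. Of the hepatocyte markers, Ttr was well above background in 0 of 20. The part of fat tissue in Scd1 was not tested.

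Fasn was lowest in MuRF1 -/- chow hearts, at -2.56, -2.39 and -2.80. After 3 weeks MuRF1 -/- hearts read -2.22, -2.12, -2.13 and -2.21, and after 8 weeks -2.35, -2.07 and -2.14. Neither fenofibrate group overlapped with chow. The differences were 0.41 ± 0.15 at 3 weeks (adjusted p = 0.0537) and 0.40 ± 0.16 at 8 weeks (adjusted p = 0.276), which share the chow hearts. In MuRF1 +/+ hearts Fasn was -2.48 to -2.04 on chow, -2.30 to -1.90 after 3 weeks and -2.24 to -1.60 after 8 weeks, with overlap throughout. On chow, MuRF1 -/- hearts were lower than MuRF1 +/+ hearts by 0.37 (log2 difference -0.37 ± 0.16, unadjusted p = 0.0348 in limma, adjusted p = 1.00). The second probe gave 0.090 ± 0.069 for this comparison, on dim signal. For MuRF1 -/- hearts against chow it gave -0.12 ± 0.065 at 3 weeks and 0.037 ± 0.069 at 8 weeks, against 0.41 and 0.40 on the first probe.

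**Figure D2:**
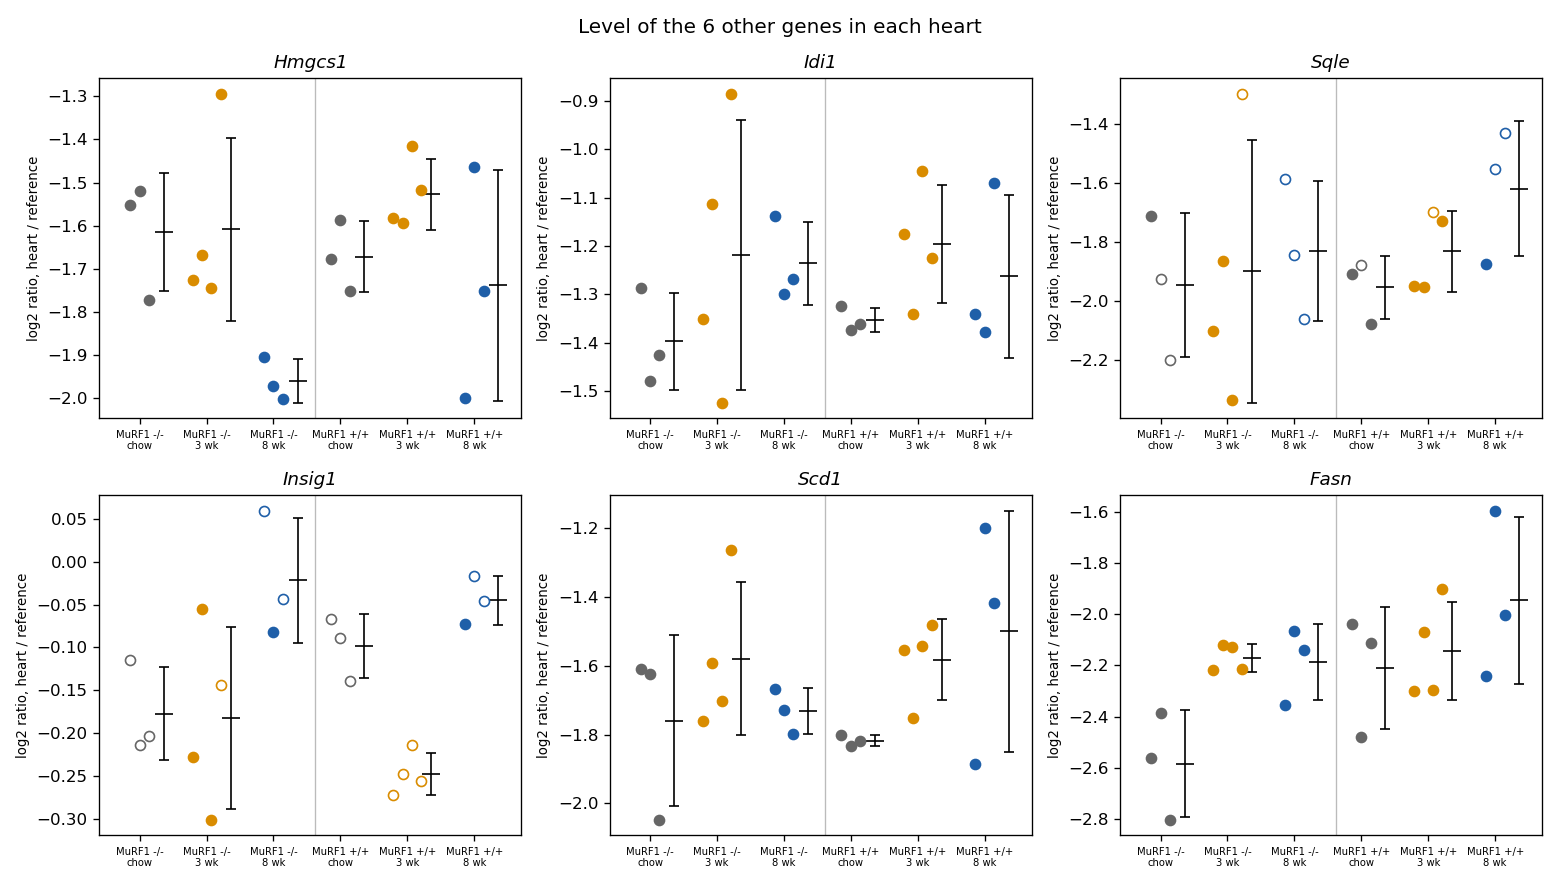
Level of the 6 other genes in each heart, as log2 ratio of heart over the newborn reference (vertical axes, which differ between genes), by genotype and diet. Filled points are hearts with the probe well above background, hollow points hearts without, and bars are mean and SD (n = 3 or 4). Most Insig1 points and 10 of 20 Sqle points are hollow; Hmgcs1 in MuRF1 -/- 8-week hearts lay between -2.00 and -1.90.

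Counted by comparison, at most 2 of the 8 genes passed. At 3 weeks against chow 2 genes fell and 0 rose in MuRF1 -/-, where 26.5% of all tested genes passed in either direction, and 2 fell and 0 rose in MuRF1 +/+, where 24.5% passed. The median difference of the 8 genes was 0.026 in MuRF1 -/- (all genes -0.0080) and 0.095 in MuRF1 +/+ (all genes 0.0099). At 8 weeks against chow 0 of the 8 passed limma in MuRF1 -/-, with 4 at an unadjusted p under 0.05, where 2.23% of all genes passed and 13.0% had such an unadjusted p. In MuRF1 +/+ 0 passed limma, with 0 at an unadjusted p under 0.05, where 14.8% of all genes passed and 32.6% had such an unadjusted p. At 8 against 3 weeks 1 rose and 1 fell in MuRF1 -/- (31.5% of all genes), and 2 rose and 0 fell in MuRF1 +/+ (17.8%), 1 of them the dim Insig1.

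**Figure D3:**
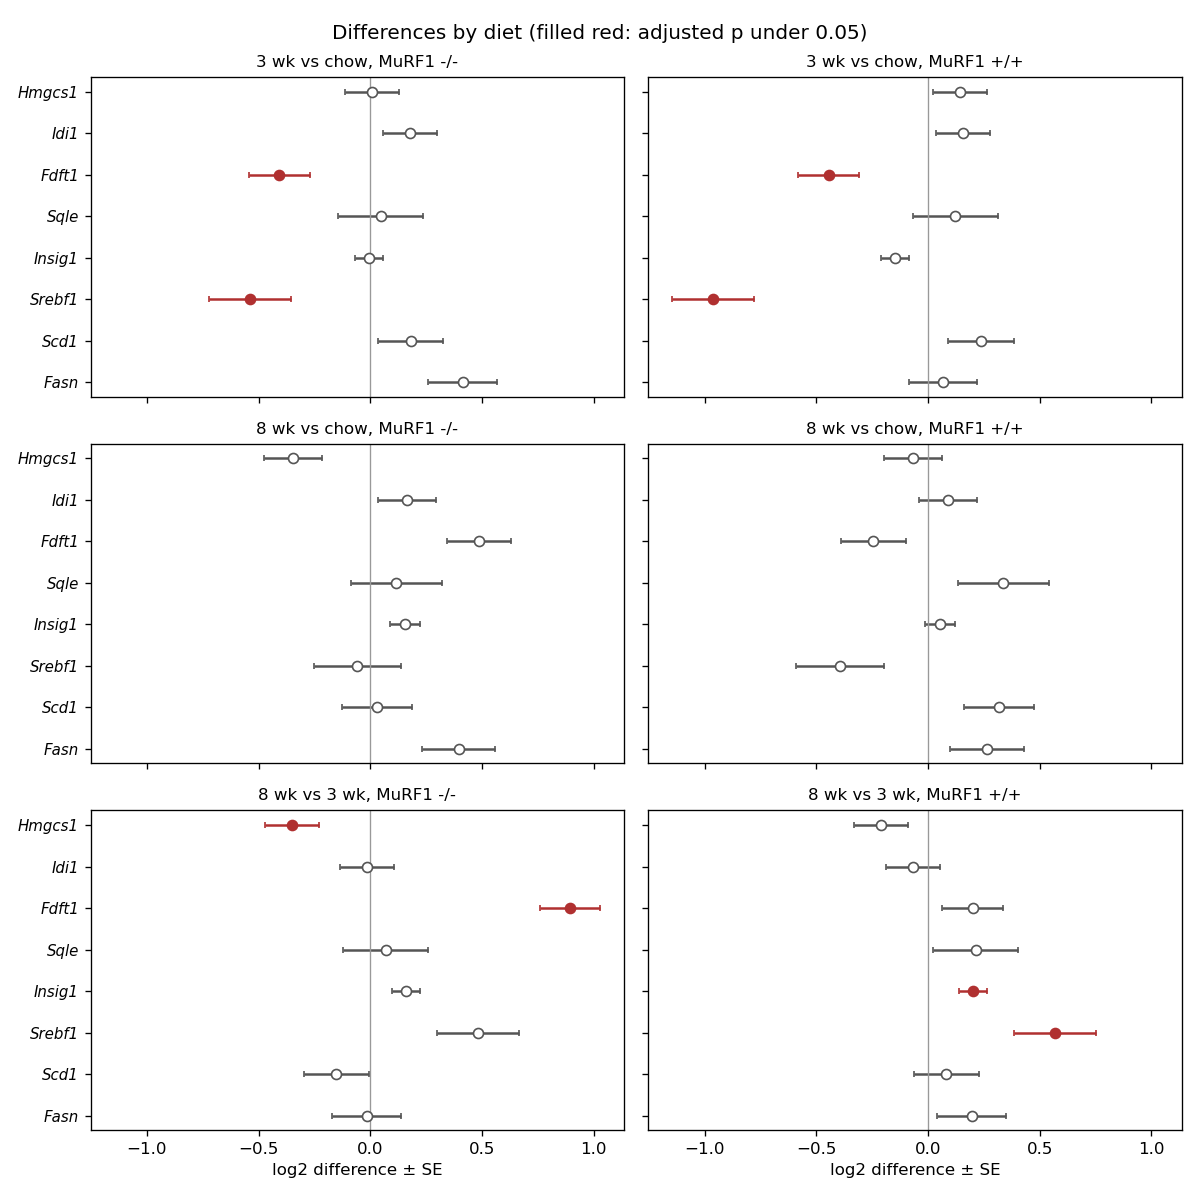
Difference of each of the 8 genes (log2, horizontal axes, with SE) in the 6 diet comparisons, with MuRF1 -/- left and MuRF1 +/+ right. Filled red points passed at an adjusted p under 0.05. Srebf1 and Fdft1 are the red points at 3 weeks in both genotypes, and at 8 against 3 weeks Fdft1 reached 0.89 in MuRF1 -/-.

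Comparing genotypes on the same diet asks whether these genes differ with loss of MuRF1. At 8 weeks the Y-linked mean was -0.81 to 1.45 in MuRF1 -/- hearts, against -0.92 to -0.52 in MuRF1 +/+ hearts. Genotype and sex are therefore partly mixed in that comparison and in the difference of the 8-week responses. With limma, 0 of the 8 passed on chow (1 at an unadjusted p under 0.05), where 0.0892% of all genes passed and 3.19% had such an unadjusted p. At 3 weeks 0 passed limma (0 unadjusted), where 0.405% of all genes passed and 5.40% did so unadjusted. At 8 weeks 0 passed limma (1 unadjusted), where 0.357% of all genes passed and 22.3% did so unadjusted. Averaged over diets 0 passed, with 1, Fasn at -0.21 ± 0.090, at an unadjusted p under 0.05 (adjusted p = 0.710), where 0.192% of all genes passed and 6.30% did so unadjusted. With limma, the difference of the 3-week responses passed for 0 of the 8 (0 unadjusted) and for 0% of all genes (2.27% unadjusted), and that of the 8-week responses for 0 of the 8 (1 unadjusted, Fdft1) and 0% of all genes (17.3% unadjusted). At 3 weeks, where each genotype had 4 hearts, the intervals were -0.34 to 0.38 for Srebf1, -0.42 to 0.11 for Fdft1 and -0.28 to 0.29 for Scd1. On chow the interval for Srebf1 was -0.81 to 0.01, with MuRF1 -/- hearts at -1.18, -0.51 and -0.87 against -0.16, -0.86 and -0.34 in MuRF1 +/+ hearts.

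Among hearts of the same group, several of these genes were high or low together. Deviations from the group means were compared over 28 gene pairs in the 20 hearts, with two-sided permutation tests within groups. By Pearson's r 4 pairs passed after adjustment over the pairs, by Spearman's rho 5, and 16 of 28 had a positive r. Hmgcs1 and Scd1 had r = 0.91 and rho = 0.86 (permutation p = 0.00064 and 0.00115, adjusted 0.0120 and 0.0107). Leaving out the 2 hearts farthest from the median of Hmgcs1 gave r = 0.86, and within slides r was 0.92. Hmgcs1 and Sqle had r = 0.80 and rho = 0.84 (permutation p = 0.00095 and 0.00033, adjusted 0.0120 and 0.00742; r = 0.79 without the 2 farthest). Sqle and Scd1 had r = 0.78 and rho = 0.82 (permutation p = 0.00129 and 0.00053, adjusted 0.0120 and 0.00742; r = 0.76 without the 2 farthest), and Idi1 and Sqle r = 0.83 and rho = 0.73 (permutation p = 0.00186 and 0.0039, adjusted 0.0130 and 0.0218; r = 0.64 without them). Sqle and Insig1 passed by rho alone, at 0.75 (adjusted 0.0218). Srebf1 and Fdft1, which fell together at 3 weeks, had r = 0.31 and rho = 0.42 within groups (adjusted permutation p = 0.169 for both).

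All values of an array share its labelling, background and normalization, and Sqle and Scd1 are dim. With Agilent's own ratio 0 of the 28 pairs passed, and of the 4 pairs above Hmgcs1 with Scd1 had r = 0.64, Idi1 with Sqle 0.31, Sqle with Scd1 0.15 and Hmgcs1 with Sqle -0.15 (adjusted permutation p = 0.359 to 0.764). With the background fit on all spots 4 pairs passed, and with the authors' deposited values 3.

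**Figure D4:**
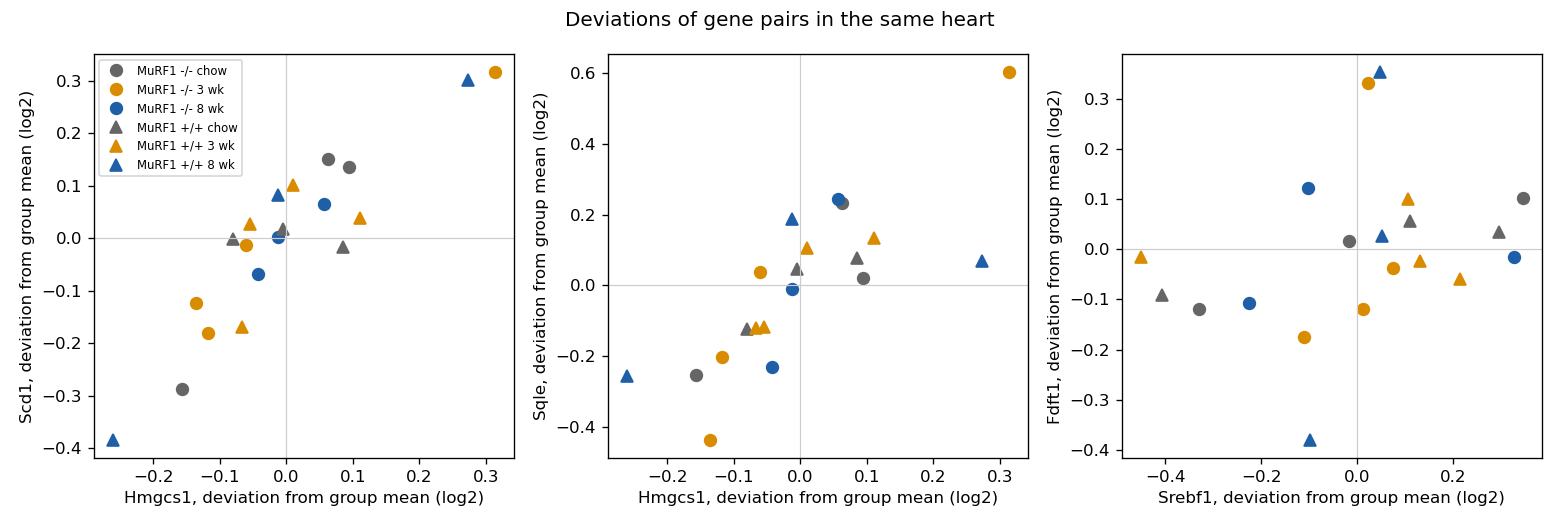
Deviation of 2 genes from their group means in the same heart (log2, both axes), for Hmgcs1 with Scd1, Hmgcs1 with Sqle, and Srebf1 with Fdft1. Each point is 1 of 20 hearts, circles are MuRF1 -/- and triangles MuRF1 +/+, and colour gives the diet. The first pair of genes had r = 0.91, the second 0.80 and the third 0.31.

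Other genes of sterol synthesis and uptake mostly did not pass. Of 20 listed genes 19 were measured. At 3 weeks 1 rose and 3 fell in MuRF1 -/- (median -0.056), where 14.4% of all tested genes rose and 12.1% fell, and 1 rose and 3 fell in MuRF1 +/+ (median 0.0087), where 12.3% rose and 12.2% fell. In both genotypes these were Stard4, which rose, and Mvd, Mvk and Fdps, which fell. Each kept its direction in all 12 or 13 other settings, but calls were lost in some. In MuRF1 -/- Stard4 passed in 8 of 13, Fdps in 11 of 13, and Mvd and Mvk in 11 of 12 each. In MuRF1 +/+ Stard4 passed in 12 of 13, Fdps in 7 of 13, Mvd in 11 of 12 and Mvk in 8 of 12. Mvd, which makes isopentenyl diphosphate, fell by 0.45 ± 0.094 in MuRF1 -/- (adjusted p = 0.00186) and by 0.33 ± 0.094 in MuRF1 +/+ (adjusted p = 0.0151). Mvk, mevalonate kinase, fell by 0.39 ± 0.092 in MuRF1 -/- and by 0.28 ± 0.092 in MuRF1 +/+, and Fdps, which makes the substrate of Fdft1, by 0.26 ± 0.081 in MuRF1 -/- and 0.23 ± 0.081 in MuRF1 +/+. Stard4, a cholesterol carrier, rose by 0.49 ± 0.15 in MuRF1 -/- and 0.67 ± 0.15 in MuRF1 +/+. At 8 against 3 weeks in MuRF1 -/- Fdps (0.42 ± 0.081, adjusted p = 0.00087) and Mvk (0.31 ± 0.092) rose, as Fdft1 did, and Stard4 fell by 0.70 ± 0.15. In that comparison 13.5% of all genes rose and 18% fell. At 8 weeks against chow 0 of 19 passed limma in MuRF1 -/-, where 2.23% of all genes passed. An unadjusted p under 0.05 was reached by 3 of the 19, and by 13.0% of all genes. Hsd17b7 alone passed in MuRF1 +/+ (-0.71 ± 0.20, adjusted p = 0.0235), where 14.8% of all genes passed.

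Of 10 genes of SREBP processing and sterol sensing, 3 rose and 2 fell at 3 weeks in MuRF1 -/- (median -0.089; 14.4% of all genes rose and 12.1% fell), and 2 rose and 3 fell in MuRF1 +/+ (median 0.11; 12.3% and 12.2%). Abca1, the cholesterol exporter, read -0.46 to -0.02 after 3 weeks in MuRF1 -/- hearts, against -0.92 to -0.60 on chow, a rise of 0.51 ± 0.11 (adjusted p = 0.00305). In MuRF1 +/+ hearts it read -0.28 to 0.01 after 3 weeks, against -0.62 to -0.49 on chow (0.42 ± 0.11, adjusted p = 0.0128). Mylip, a ubiquitin ligase that degrades the LDL receptor, rose by 0.66 ± 0.18 in MuRF1 -/- and 0.52 ± 0.18 in MuRF1 +/+, and Abcg1, another sterol exporter, by 0.48 ± 0.14 in MuRF1 -/-. The liver X receptors are encoded by Nr1h2 and Nr1h3. Nr1h2 fell by 0.36 ± 0.11 in MuRF1 -/- and 0.35 ± 0.11 in MuRF1 +/+, and Nr1h3 by 0.46 ± 0.13 in MuRF1 -/-. Scap, the escort that carries SREBPs to the Golgi, fell by 0.54 ± 0.14 in MuRF1 +/+ (adjusted p = 0.0102). Insig2, a relative of Insig1, fell there by 0.46 ± 0.16 (adjusted p = 0.0452), but passed in only 5 of 13 other settings. At 8 weeks against chow Mylip (1.04 ± 0.19, adjusted p = 0.00241) and Abca1 (0.58 ± 0.12, adjusted p = 0.00511) were again higher in MuRF1 +/+. So was Abcg1 (0.46 ± 0.15, adjusted p = 0.0477), but it passed in only 3 of 13 other settings, which gave 0.28 to 0.87. Insig2 was lower in MuRF1 +/+ (-0.69 ± 0.17, adjusted p = 0.0143), where 14.8% of all genes passed. In MuRF1 -/- 0 of 10 passed limma, where 2.23% of all genes passed. An unadjusted p under 0.05 was reached by 3 of the 10, and by 13.0% of all genes. At 8 against 3 weeks Nr1h3 and Scap rose in both genotypes: Nr1h3 by 0.57 ± 0.13 in MuRF1 -/- and 0.48 ± 0.13 in MuRF1 +/+, and Scap by 0.49 ± 0.14 in MuRF1 -/- and 0.46 ± 0.14 in MuRF1 +/+. In MuRF1 -/- Nr1h2 also rose (0.49 ± 0.11), and Srebf2, the SREBP best known for driving the sterol enzymes, fell by 0.43 ± 0.14 (adjusted p = 0.0240).

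Of 17 further genes of fatty acid synthesis and desaturation, 3 rose and 1 fell at 3 weeks in each genotype (median 0.090 in MuRF1 -/- and 0.023 in MuRF1 +/+), beside 26.5% and 24.5% of all genes in either direction. Mid1ip1, a protein that promotes the polymerisation of acetyl-CoA carboxylase, read 1.27 to 2.06 after 3 weeks in MuRF1 -/- hearts, against 2.77 to 3.03 on chow. It fell by 1.20 ± 0.22 (adjusted p = 0.000588). In MuRF1 +/+ hearts it read 1.68 to 2.08 after 3 weeks, against 3.02 to 3.23 on chow, and fell by 1.19 ± 0.22 (adjusted p = 0.000697). At 8 weeks it was again lower than on chow in MuRF1 +/+ (-1.17 ± 0.23, adjusted p = 0.00338). Mlxipl, which encodes the carbohydrate-responsive factor ChREBP, rose by 0.67 ± 0.11 in MuRF1 -/- (adjusted p = 0.000339) and 0.46 ± 0.11 in MuRF1 +/+ (adjusted p = 0.00629). At 8 against 3 weeks it fell by 0.73 ± 0.11 in MuRF1 -/- and 0.54 ± 0.11 in MuRF1 +/+. The elongase Elovl5 rose at 3 weeks by 0.48 ± 0.13 in MuRF1 -/- and 0.36 ± 0.13 in MuRF1 +/+. These rises passed in 9 of 13 other settings in MuRF1 -/- and 5 of 13 in MuRF1 +/+. At 8 against 3 weeks Elovl5 fell by 0.56 ± 0.13 in MuRF1 -/-. Elovl6, another elongase, rose at 3 weeks in MuRF1 +/+ (0.40 ± 0.13, adjusted p = 0.0387) and passed in 6 of 12 other settings. Acaca, acetyl-CoA carboxylase, rose at 3 weeks in MuRF1 -/- (1.01 ± 0.27, adjusted p = 0.0109) but was well above background in 8 of 20 hearts. Its size is uncertain: over 12 other settings this rise ran from 0.42 to 4.44. The Acaca difference at 8 against 3 weeks in MuRF1 -/- ran from -4.10 to -0.44. At 8 against 3 weeks in MuRF1 -/- 1 gene rose, Mid1ip1 (0.74 ± 0.22), where 13.5% of all genes rose. Another 4 fell, among them Acaca (-1.08 ± 0.27) and the desaturase Scd2 (-0.62 ± 0.21), where 18% of all genes fell.

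The genes whose levels over the 20 hearts most resembled these members are given as description, since hearts share group, labelling and array. For the mean of the 4 sterol enzymes they were Shcbp1 (r = 0.93), Serpinb5 (0.92), Hunk (0.91), Mex3b (0.91) and Cdh1 (0.90). Shcbp1 was well above background in only 3 of 20 hearts and Cdh1 in 6 of 20. That mean joins Hmgcs1 and Fdft1, which had r = -0.68 within groups (adjusted permutation p = 0.197). For Scd1 they were Eln (0.92), Birc5 (0.92), Rassf2 (0.91), Car3 (0.90), 1 of the 10 adipocyte markers, and Ucp1 (0.89). For Fasn they were Tnnt1 (0.80), Alb (0.78), LOC639490 (0.78), Thsd1 (0.76) and Atxn7l2 (0.75). Without the 2 hearts farthest from the median of Fasn these were 0.55, 0.52, 0.78, 0.49 and 0.55 in the same order. Chosen after their calls were seen, Srebf1 was most like Apba3 (0.90), Bcam (0.90), Slc39a3 (0.89), Dda1 (0.89) and Plekhh3 (0.89), and Fdft1 most like Tubgcp2 (0.96), Ccdc91 (0.96), Srp68 (0.95), Zxdc (0.94) and Cry2 (0.94).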

How the data were processed

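Hearts were set against a common newborn reference on 2-colour Agilent arrays (design 014868), heart in Cy5 and reference in Cy3 per the labels, without dye swaps. One protocol line of the labels names Cy3 for the heart RNA; the channel labels were followed. The deposited scanner files hold spot intensity from Feature Extraction 9.5.3.1, not normalized between arrays, with flags of 0 or 1 for background and outliers (other values, deposited as the scanner wrote them), and Agilent's log10 ratio, corrected and dye-normalized per the file headers. A further deposited table gives log2 values by the authors; how they were made is not stated in the sources used here.

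Intensities were corrected with normexp (offset 50), which departs from a fit on all spots by leaving out 6 spots whose background exceeded their signal by over 50. Ratios were loess-normalized, outlier spots set missing and spots of a probe averaged. One limma 3.58.1 model of the 6 group means (R 4.3.3 with data.table, 1.17.8; trended prior) gave 12 comparisons over 14567 genes, with Benjamini-Hochberg adjustment at 0.05. It was tested on simulated data. In the heart channel 34.0% to 51.9% of probes were well above background and 0 spots were saturated; the number of arrays limits the precision. Replicates are called biological in the labels, with no litter or animal given. Alternatives were Agilent's ratio, the series matrix, the heart channel alone, other background fits and filters, array weights, blocks, a Y-linked covariate and leaving out arrays. The members and lists were chosen with earlier results of these data known; all 8 members are named, other listed genes where they passed, at most 5 per comparison by smallest p, with repeats across comparisons. Where a count was small, further genes of the lists were named after their values were seen.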

Additional observations from a re-analysis of the deposited data

Results flagged for a closer look

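In 2 of the 16 combinations of a gene and a group of 4 hearts, 1 heart lay apart from the others by more than Dixon's 95% critical value, and chance gives about 1 in 20. Hmgcs1 in replicate 4 of the MuRF1 -/- 3-week hearts was -1.29, against -1.74 to -1.67 in the others of the group. Srebf1 in replicate 1 of the MuRF1 +/+ 3-week hearts was -1.86, against -1.31 to -1.20 in the others.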

How the results depend on the processing

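Srebf1 at 3 weeks against chow in MuRF1 +/+ and Fdft1 at 8 against 3 weeks in MuRF1 -/- passed under all alternatives run; the other 6 calls were each lost in 4 or more. No called difference of the 8 genes turned its sign, but of the correlated pairs Hmgcs1 with Sqle, at r = 0.80, was -0.15 with Agilent's ratio; Sqle at 8 against 3 weeks in MuRF1 -/- passed as -0.87 with Agilent's ratio, against 0.069 on the ratios used here. For other calls and counts the cause of a change was not tested. Of the 8 genes, the count that passed at 3 weeks against chow in MuRF1 -/- (2) was 1 with Agilent's ratio, normexp on all spots or only the groups compared, and 0 with the Y-linked covariate, no filter on dim probes, the replicate block or the series matrix, and 0 to 2 without 1 heart. In MuRF1 +/+ (2) it was 1 with the Y-linked covariate, the heart channel alone, the replicate block or the series matrix, 4 with array weights, and 1 to 2 without 1 heart. At 8 against 3 weeks it was, in MuRF1 -/- (2), 4 with Agilent's ratio or array weights, 1 with the Y-linked covariate, normexp on all spots, the replicate block, the series matrix or slide as a block, and 1 to 2 without 1 heart. In MuRF1 +/+ (2) it was 1 with the heart channel alone, no or a strict filter on dim probes, the series matrix or slide as a block, 0 with normexp on all spots or only the groups compared, and 0 to 2 without 1 heart. At 8 weeks against chow (0) it was 2 in either genotype with array weights, and in MuRF1 -/- 1 with only the groups compared and 2 without the 2 arrays that stood apart, whereas without MuRF1 +/+ 8-week replicate 1 it was 2 in MuRF1 +/+ (range 0 to 2). Between genotypes (0) it was 1 at 3 weeks with Agilent's ratio (Insig1), 1 at 8 weeks with array weights and 0 to 2 without 1 heart; the difference of the 8-week responses (0) gave 1 with array weights and 0 to 1 without 1 heart. The correlated pairs (4) were 0 with Agilent's ratio.

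Same-numbered hearts did not as a rule deviate together (median r = -0.034 over 46 pairs, 7 of 20 arrays correlating best with their own number). The main model did not pair samples by replicate number, and these correlations cannot exclude a pairing. Counts over all genes moved too: at 3 weeks against chow 472 of 14567 genes passed in MuRF1 -/- with the Y-linked covariate (3856 without) and 369 in MuRF1 +/+ (3568 without), with Ddx3y and Eif2s3y, the covariate's own components, near 0 in it by construction, and without MuRF1 +/+ 8-week replicate 1 the 8-week genotype comparison gave 3189 (52 with it). Dim signal limits Sqle and Insig1.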
